A study of Mus musculus with 16 samples.

Results

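The comparison described here set mouse pancreatic cancer cells that carried both of the reporters used for sorting (double-positive, DP) against cells from the same kind of tumour that carried neither (double-negative, DN). Its members were the 4 libraries titled DP and the 4 titled DN, 8 of the 16 libraries deposited, and the values were read counts per gene. The cells were of a KPC line of pancreatic ductal adenocarcinoma (PDAC) that holds 7TCF-eGFP, in which TCF sites drive GFP, together with a construct named Porcn-DMA. They had formed tumours in the pancreas of mice, which were dissociated and sorted by flow cytometry. The other 8 libraries came from cells positive for GFP alone or for mScarlet alone, 4 of each. Every group thus had the same cell line with the same constructs, and DP differed from DN in the sort gates. The design gave 4 mice per group as independent biological replicates, and no label says whether the groups share mice. Neither the strain, age and treatment of the hosts nor the make-up of Porcn-DMA is given in these sources. The GFP gate is the WNT-responsive one of the design, and no label says in words what mScarlet marks, so the mScarlet gate is the one left for the WNT-secreting cells that the design names.

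WNT proteins are lipid-modified signals. PORCN adds the lipid, WLS carries the ligand to the cell surface, and FZD receptors with LRP5 or LRP6 pass the signal on, so that beta-catenin enters the nucleus and joins TCF factors. In the intestine this pathway maintains stem cells, and cells that leave the crypt stop dividing and become enterocytes or goblet cells. Pancreatic carcinomas are commonly placed on a scale from a classical state, with genes of gastric and intestinal epithelium, to a basal-like or mesenchymal state.

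Total counts ran from 80647185 to 104273669 per library over the 8 libraries, and 15963 of the 24467 listed genes had enough counts to be tested. Levels are given as CPM, counts scaled to a common library total with edgeR's TMM factors, in the order of library numbers 1 to 4. The log2 difference is the log2 fold change of DP minus DN. A gene was called when its Benjamini-Hochberg adjusted p in edgeR's quasi-likelihood test was under 0.05. Before adjustment, 2520 of the 15963 genes tested had a p under 0.05 in this test. The first principal component of the 8 libraries held 37.5% of the variance and placed DP (13.63 to 42.17) apart from DN (-51.09 to -11.85), with DP library 4 nearest to DN. The second, with 21.6%, had DN library 1 (50.47) and DP library 1 (33.75) at one end. Keratin genes of ductal carcinoma were high in both groups. Krt19 was at 9440.1, 7028, 7958 and 8851 CPM in DN and at 10219, 12038, 10227 and 8699 CPM in DP. Cdh1, which encodes E-cadherin, was at 621, 799, 926 and 538 CPM in DN and at 1297, 1220, 1315 and 790 CPM in DP, and was not called (adjusted p = 0.287 in edgeR, 0.0293 with a block for library number over the 8 libraries alone). Epcam and Cldn4 were scarce in both groups: Epcam, which encodes a surface adhesion protein, was at most 0.474 CPM in any of the 8 libraries and Cldn4, a tight junction claudin, at most 3.28 CPM. No member of the 12-gene epithelial identity list was called by edgeR or by DESeq2, and 1 had an unadjusted p under 0.05.

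DP cells had more of the transcripts of gastric and intestinal secretory and absorptive epithelium than DN cells, and fewer of those of glycolysis, cell division and serine synthesis. Of the mesenchymal, contractile and WNT lists only a few members were called lower. In all, 371 genes were called (2.32% of those tested), 98 of them higher in DP (0.614%) and 273 lower (1.71%). The median log2 fold change was 1.35 among those higher and -1.25 among those lower, against 0.022 over all genes tested. A change of at least 2 on the log2 scale was seen in 22 of the genes higher in DP and 58 of those lower. For each of the 371 the 4 DP libraries lay wholly on one side of the 4 DN libraries. Over all genes tested, DP lay wholly above DN in 5.68% and wholly below in 7.37%.

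A fit that took the library number as a block called 1017 genes (6.37%), of which 394 were higher and 623 lower, and 370 of the 371 were among them. The number of calls fell to 105, 221 and 169 without DN library 1, 2 or 4, and to 119, 158 and 159 without DP library 1, 2 or 3. It was 532 without GFP library 1, 493 without GFP library 4 and 761 without both (the GFP libraries enter the fit's estimate of spread). Losses of single calls under the 26 alternatives tried are given beside the genes.

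**Figure D1:**
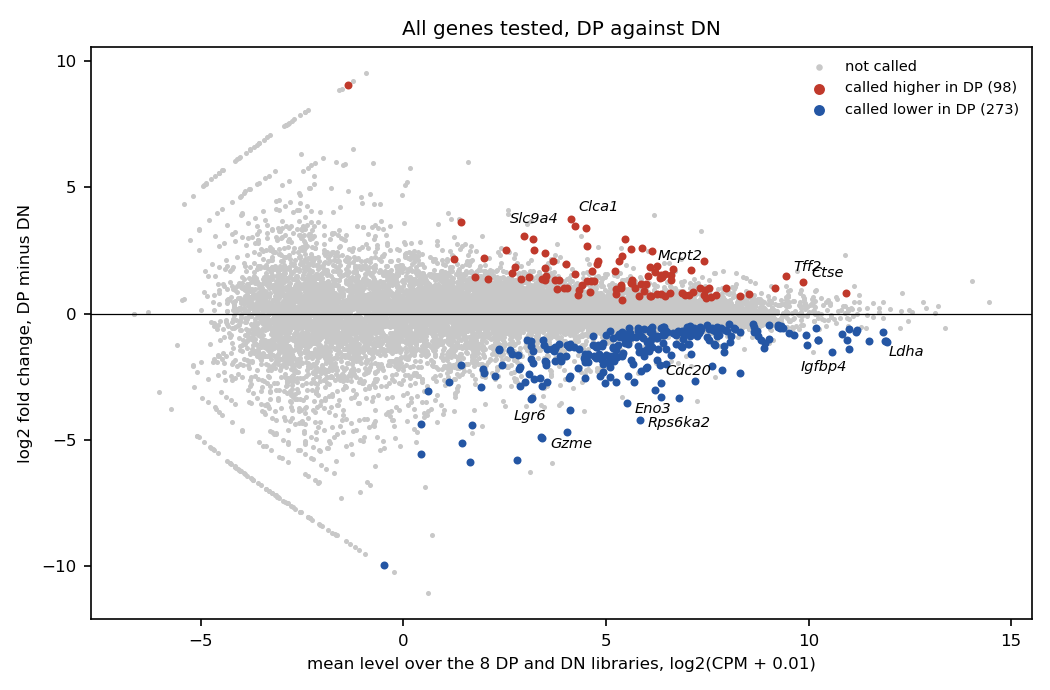
Each point is 1 of the 15963 genes tested: the horizontal axis gives the mean level over the 8 libraries as log2(CPM + 0.01) and the vertical axis the log2 fold change of DP minus DN. The 98 red genes were called higher in DP and the 273 blue ones lower, and the straight lines of points at the left are genes with counts in 1 group only.

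Genes of products secreted by mucous cells were among those higher in DP. Clca1 encodes a secreted protein of goblet cell mucus. It was at 3.4, 1.44, 2.9 and 1.94 CPM in the DN libraries and at 57.9, 17.3, 40.4 and 15.1 CPM in the DP libraries (log2 difference 3.76, SE 0.66, adjusted p = 0.00824 in edgeR). The DP libraries numbered 1 and 3 were the highest, and the lowest DP library was still well above the highest DN library. Of the trefoil and mucin list, 6 of 21 tested members were called higher and none lower, with a median log2 fold change of 1.41. The block raised the count to 12 higher, and leaving out 1 library of DN or DP lowered it to as few as 2 (without DN library 1, 2 or 4 or DP library 1) or 3 (without DP library 2 or 3).

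Trefoil factors are small secreted peptides that protect the mucosa. Tff2, the gastric member and the most abundant one here, was at 318, 377, 488 and 255 CPM in DN and at 1269, 1081, 1150.1 and 591 CPM in DP (log2 difference 1.51, SE 0.36, adjusted p = 0.0408 in edgeR). Its groups did not overlap, though DP library 4, at 591 CPM, lay close to DN library 3, at 488 CPM. The Tff2 call was one of the less stable: it was lost in 10 of the 26 alternatives, and its adjusted p reached 0.151. Agr2, a protein of the endoplasmic reticulum needed for mucin folding, was at 16.1, 11.4, 10.8 and 6.7 CPM in DN and 69.4, 19.7, 27.7 and 58.2 CPM in DP (log2 difference 1.96, SE 0.41, adjusted p = 0.0189 in edgeR), a call that was lost without DN library 2 or 4 or DP library 1 (adjusted p up to 0.0829). The calls of Tff1 (16.8 ± 8.64 CPM in DN and 103 ± 50.5 CPM in DP, adjusted p = 0.0281) and Tff3 (3.97 ± 1.65 and 41.3 ± 26.5 CPM, adjusted p = 0.0387; SD, n = 4, edgeR) were lost in 7 and 10 of the 26 alternatives (adjusted p up to 0.111 and 0.136). Muc1, which encodes a membrane mucin, was at 1424 ± 539 CPM in DN and 3023 ± 778 CPM in DP (SD, n = 4), and missed the threshold (edgeR adjusted p = 0.198, 0.0259 with the block).

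Genes of the absorptive enterocyte were also higher in DP. Slc9a4 encodes a sodium-proton exchanger of gastric and intestinal epithelium and lies on chromosome 1 from 40579986 to 40630731 (GRCm38). Its level was 1.94, 1.23, 6.47 and 2.76 CPM in DN and 59.8, 28.6, 30.2 and 19.1 CPM in DP (log2 difference 3.47, SE 0.52, adjusted p = 0.00392 in edgeR). Every DP library exceeded every DN library, with DP library 1 the highest and DN library 3 the highest of its group. Its exons overlap those of 2 predicted genes, and whether counting used the strand is not stated in these sources. Alpi, the intestinal alkaline phosphatase of the brush border, was at 7.23, 2.82, 6.38 and 8.47 CPM in DN and 38.4, 40.2, 47.2 and 33.7 CPM in DP (log2 difference 2.68, SE 0.49, adjusted p = 0.00972 in edgeR), with the DP libraries close together.

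Ces2c and Ces2b encode carboxylesterases of intestine and liver that hydrolyse lipids and drugs. Ces2c was at 9.82, 15.2, 21.5 and 11.1 CPM in DN and 69.7, 81.9, 81 and 49.8 CPM in DP (log2 difference 2.29, SE 0.42, adjusted p = 0.00953 in edgeR). Reads of this family may be shared between near-identical copies, so the family is the safer unit: Ces2b, Ces2c and Ces2d-ps were each called higher, with log2 fold changes of 2.96, 2.29 and 2.09, the last of them lost without DN library 1, 2 or 4 or DP library 1, 2 or 3 (adjusted p up to 0.0948). Phgr1, a small protein named for its proline, histidine and glycine content, was at 8.61, 16.6, 20.5 and 14.6 CPM in DN and 64.6, 64, 72.8 and 56.9 CPM in DP (log2 difference 2.10, SE 0.32, adjusted p = 0.00395 in edgeR). All 4 DP libraries were thus far above the DN range. Of the enterocyte list, 7 of 27 tested members were called higher and 1 lower, with a median of 0.924, and 11 higher and 1 lower with the block. The count of those higher was 5 or 6 with any 1 DN or DP library left out. The member called lower was Apoa1, an apolipoprotein, at 35.2, 4.78, 6.24 and 18.4 CPM in DN and 2.29, 0.351, 1.83 and 1.75 CPM in DP (log2 difference -3.38, SE 0.82, adjusted p = 0.043 in edgeR), and this call was lost in 12 of the 26 alternatives (adjusted p up to 0.168).

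**Figure D2:**
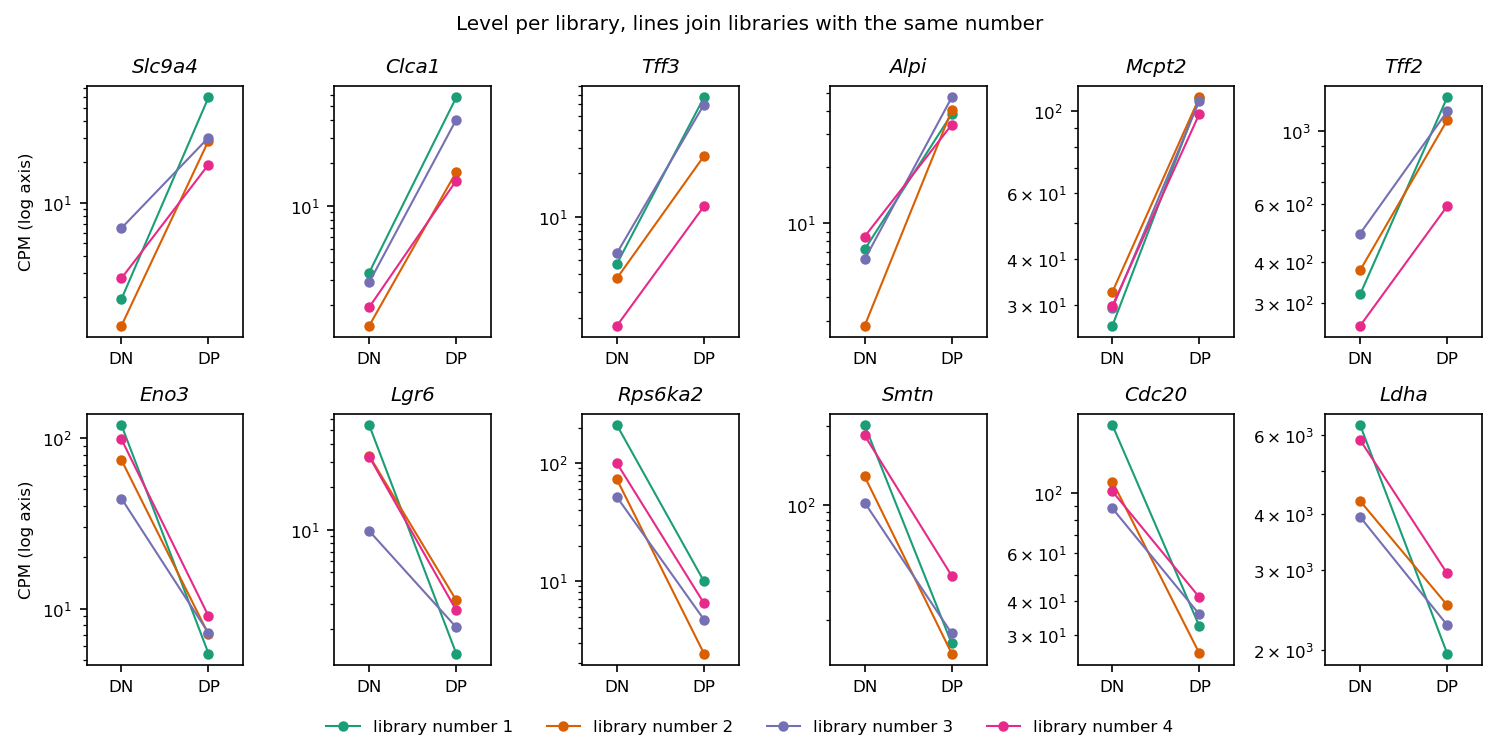
Each panel is 1 gene, with the level in CPM on a log axis whose range differs between panels, and each line joins the DN and the DP library of one number. Slc9a4, Clca1, Tff3, Alpi, Mcpt2 and Tff2 rose from DN to DP in all 4 numbers, and Eno3, Lgr6, Rps6ka2, Smtn, Cdc20 and Ldha fell in all 4.

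A pair of proteases usually known from mast cells was raised as well. Mcpt2 was at 26.4, 32.5, 29.4 and 29.8 CPM in DN and 108, 109, 106 and 98.3 CPM in DP (log2 difference 1.83, SE 0.17, adjusted p = 9.54e-05 in edgeR). Both groups were tight, and the gap between them was wider than the range within either. Mcpt4 was at 11.5, 12.7, 17.4 and 14.5 CPM in DN and 135, 64.2, 75.7 and 61.2 CPM in DP (log2 difference 2.58, SE 0.34, adjusted p = 0.00382 in edgeR). In a list of 12 mast cell markers, all tested, these were the 2 called higher; none was called lower (1 with the block), 8 had a lower fitted level in DP, and the median log2 fold change was -3.193. Cpa3, the mast cell carboxypeptidase, had 219 counts over the DN libraries and 0 over the DP libraries (adjusted p = 0.173 in edgeR), and Tpsb2, a tryptase, 1189 and 0 (adjusted p = 0.0635 in edgeR, 0.031 with the block). Fcer1a, a chain of the IgE receptor, was at 0.823, 0.906, 0.863 and 0.592 CPM in DN and 0, 0, 0.121 and 0 CPM in DP (adjusted p = 0.314 in edgeR). The protease genes of this locus are alike in sequence, so reads may be shared between them. The mast cell list was drawn up after these values had been seen.

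The classical PDAC list, which shares the trefoil factors and Agr2 with the secretory list, had 5 of 27 tested members called higher, none lower, and a median of 0.893 (11 higher with the block). Without 1 library the count was as low as 0 (without DN library 4) or 1 (without DN library 1 or 2 or DP library 1 or 2), and 2 without DP library 3. Ctse, the gastric protease cathepsin E, was at 408, 660.5, 619 and 510.4 CPM in DN and 1104, 1435, 1230.2 and 1469 CPM in DP (log2 difference 1.25, SE 0.25, adjusted p = 0.0143 in edgeR). Its groups did not overlap, and the call was lost without DN library 1 or 4 or DP library 2 (adjusted p up to 0.0631). Of the basal-like list, 2 of 19 tested members were called lower, the glucose transporter Slc2a1 (698 ± 161 CPM in DN and 349.6 ± 128 CPM in DP, adjusted p = 0.0313 and up to 0.127 over the alternatives) and the chromatin protein Hmga2 (6.6 ± 2.73 and 1.28 ± 0.711 CPM, adjusted p = 0.0462 and up to 0.163), each given as mean and SD of 4 libraries, and the median was 0.047. Without DN library 1 or 4, or DP library 1, 2 or 3, neither was called, and without DN library 2 only 1 was.

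Klf4, a transcription factor of differentiated gut epithelium, was at 18.2, 28.4, 33.1 and 29.5 CPM in DN and 57.5, 60.6, 55.5 and 49.6 CPM in DP (log2 difference 1.03, SE 0.20, adjusted p = 0.0127 in edgeR). It was the 1 called gene of 21 tested endoderm and pancreas transcription factors (3 higher with the block), whose median was 0.46. Gata6 and Hnf4a, factors tied to the classical state, were at 40 ± 8.8 and 172 ± 28.2 CPM in DN and at 45.1 ± 5.61 and 182 ± 41.6 CPM in DP (SD, n = 4), with adjusted p of 0.749 and 0.926 in edgeR. None of 23 epithelial junction genes was called by edgeR, against 9 at an unadjusted p under 0.05, 3 higher with DESeq2 and 4 higher with the block. Ocln, the tight junction protein occludin, was at 3.14, 6.54, 8.73 and 2.08 CPM in DN and 12.6, 13.9, 20.1 and 11 CPM in DP (log2 difference 1.49, SE 0.42, adjusted p = 0.0811 in edgeR; adjusted p = 0.0144 with the block).

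Genes of glycolysis were lower in DP as a group. Of the 34 tested members of the glycolysis and hypoxia list, 13 were called lower and none higher, 29 had a lower fitted level in DP, and the median log2 fold change was -0.957. With the block 24 were lower and 1 higher, the latter being Pfkfb3, which makes an activator of phosphofructokinase (adjusted p = 0.0413, 0.0664 without the block). Without 1 library the count called lower was 6 (DN library 1 or DP library 3), 7 (DP library 1 or 2), 9 (DN library 4) and 11 to 19 for the others, 19 being the count without DP library 4. The genes called covered most steps of the pathway, from glucose entry (Slc2a1) over Gpi1, Pfkl, Aldoa, Tpi1, Gapdh, Pgam1, Eno1, Eno3 and Pkm to lactate (Ldha), with Pdk1, which holds pyruvate back from the mitochondrion, and the collagen prolyl hydroxylase P4ha2. The calls of Pfkl, Tpi1, Eno1, Eno3, Pkm and Ldha held under every alternative; that of Aldoa (adjusted p = 0.0495) was lost in 16 of the 26, and those of Gpi1, Pgam1, Pdk1 and P4ha2 in 3, 4, 3 and 6, each when 1 library was left out.

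Ldha, lactate dehydrogenase A, was at 6307, 4277, 3943 and 5845 CPM in DN and 1961, 2513, 2269 and 2954 CPM in DP (log2 difference -1.07, SE 0.16, adjusted p = 0.00395 in edgeR). Pkm, pyruvate kinase, was at 6324, 4303, 4282 and 5968 CPM in DN and 2041, 2455, 2251 and 3037 CPM in DP (log2 difference -1.09, SE 0.16, adjusted p = 0.00392 in edgeR). In both, library 4 was the highest of the DP group and still below the lowest DN library. Eno3, the muscle-type enolase, had the lowest adjusted p of all genes tested. It fell from 119, 74.4, 44.2 and 98.4 CPM in DN to 5.45, 7.07, 7.19 and 9.03 CPM in DP (log2 difference -3.55, SE 0.31, adjusted p = 5.91e-05 in edgeR). Tpi1, triosephosphate isomerase, was at 3883, 3287, 3371 and 4988 CPM in DN and 1328, 1872, 1854 and 2337 CPM in DP (log2 difference -1.07, SE 0.18, adjusted p = 0.00619 in edgeR). Gapdh had its groups apart too, at 5693, 4114, 4233 and 7553 CPM in DN and 1909, 2431, 2183 and 3378 CPM in DP (log2 difference -1.12, SE 0.23, adjusted p = 0.0163 in edgeR), and its call was lost without DN library 1 or 4 or DP library 1, 2 or 3 (adjusted p up to 0.0742). Eno1 has a near-identical copy, Eno1b, and Gapdh, Aldoa, Pkm and Ldha have processed copies in the genome, so some of their reads may be counted elsewhere; Tpi1 and Pkm overlap other gene models. The 26 tested genes of the mitochondrial respiratory chain were not called by edgeR or DESeq2, 2 of them had an unadjusted p under 0.05, and their median was -0.084.

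Many hypoxia-response genes carry a core site of hypoxia-inducible factors, of which ACGTG is one form. The RefSeq promoters (GRCm38.p6, 250 bases before to 50 after each start) were searched on both strands for ACGTG alone. It was found in 24 of the 43 promoters of the glycolysis and hypoxia list (55.8%), against 23.7% of the promoters of genes tested and 19.6% of all promoters in the table, in 32.2% of those of genes called lower and in 21.2% of those of genes called higher. The 150 bases before the first start of Ldha (chr7:46845654-46845803, plus strand) and before the start of Pgam1 (chr19:41911721-41911870, plus strand) are shown because they carry the site, which is in capitals on either strand. In CACGTG the site reads on both strands at once and gives overlapping matches, and the first bases of the matches lie 145, 144, 48, 47 and 34 bases before the start in Ldha and 114 bases before it in Pgam1.
Ldha: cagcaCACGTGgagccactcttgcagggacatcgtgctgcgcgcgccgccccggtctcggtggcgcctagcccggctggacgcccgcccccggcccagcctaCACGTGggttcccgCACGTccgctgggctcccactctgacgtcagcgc
Pgam1: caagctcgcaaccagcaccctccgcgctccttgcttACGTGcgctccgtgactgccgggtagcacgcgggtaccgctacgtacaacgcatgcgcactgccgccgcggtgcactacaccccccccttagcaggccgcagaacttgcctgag
A match describes these letters and does not show binding. The list was made of genes known for glycolysis and hypoxia, so its share describes the list and not the difference between DP and DN. Of the 13 called genes of the list, 4 had ACGTG in every promoter listed for them (Gapdh, P4ha2, Pgam1 and Slc2a1), 3 in some but not all (Aldoa, Ldha and Pkm) and 6 in none (Eno1, Eno3, Gpi1, Pdk1, Pfkl and Tpi1).

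Genes of mitosis were lower in DP as well. All 30 tested members of the G2/M list had a lower fitted level, 13 were called (16 with the block), and the median log2 fold change was -1.63. Leaving out 1 library gave 3 (DN library 1), 4 (DP library 1 or 2), 5 (DN library 2 or 4 or DP library 3) or again 13 called. Cdc20, which activates the complex that starts anaphase, lies on chromosome 4 from 118432901 to 118437343 and was at 178, 110.3, 88 and 102 CPM in DN and 32.3, 25.7, 35.8 and 41.3 CPM in DP (log2 difference -1.82, SE 0.28, adjusted p = 0.00401 in edgeR). DN library 1 was the highest, and the DP libraries lay within a narrow band far below all DN libraries. Exons of Cdc20 overlap Elovl1. Cenpa, the histone variant of the centromere, was at 132, 111, 56.6 and 115 CPM in DN and 21.2, 19.2, 16.5 and 36.5 CPM in DP (log2 difference -2.15, SE 0.36, adjusted p = 0.00666 in edgeR). Plk1, a kinase of mitotic entry, was at 80.7, 48.1, 44.2 and 43.8 CPM in DN and 22, 10.5, 15.4 and 20.2 CPM in DP (log2 difference -1.67, SE 0.29, adjusted p = 0.00767 in edgeR). For each of these the highest DP library lay below the lowest DN library. The proliferation marker Mki67 was low in all 8 libraries, at 2.01, 0.863, 0.741 and 2.64 CPM in DN and 1.33, 1.03, 0.169 and 0.947 CPM in DP, and was not called (log2 difference -0.85, SE 1.01, adjusted p = 0.769 in edgeR).

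Promoters of mitotic genes often hold the cell cycle homology region, TTTGAA, through which they are silenced outside G2 and M. This sequence was in 20 of the 26 promoters of the G2/M list (76.9%), against 13.1% of the promoters of genes tested and 17.9% of all in the table, and in 16.1% of those of genes called lower and 9.62% of those of genes called higher. The bases before the starts of Cdc20 (chr4:118437344-118437493, minus strand) and Cdk1 (chr10:69352913-69353062, minus strand) show where it lies, in capitals. In Cdc20 it begins 18 bases before the start, and in Cdk1 71 and 15 bases before it. Plk1 and Cenpa held it in the searched promoter but not within the 150 bases before the start. The list members Ccnb1 and Birc5 did not hold it in the searched promoter. The list was made of genes known for mitosis, so its share describes the list and not the difference between DP and DN.
Cdc20: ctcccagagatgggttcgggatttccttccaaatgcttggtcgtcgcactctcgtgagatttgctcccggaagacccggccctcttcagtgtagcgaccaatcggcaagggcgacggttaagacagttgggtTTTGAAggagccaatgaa
Cdk1: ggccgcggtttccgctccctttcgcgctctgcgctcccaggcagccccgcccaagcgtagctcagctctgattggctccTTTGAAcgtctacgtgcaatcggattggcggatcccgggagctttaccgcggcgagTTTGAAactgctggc
Cdk1, the kinase that drives entry into mitosis, was at 51.2 ± 15.5 CPM in DN and 20.5 ± 8.21 CPM in DP (SD, n = 4; log2 difference -1.32, SE 0.33, adjusted p = 0.0469 in edgeR), and its call was lost in 9 of the 26 alternatives (adjusted p up to 0.174).

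Of 30 tested genes of DNA replication, 8 were called lower and none higher (13 lower with the block), with a median of -0.91. Without DP library 1 the count was 0 and without DN library 1 it was 1; it was 3 to 5 without DN library 2 or 4 or DP library 2, 3 or 4, and 9 without DN library 3. Mcm5, a subunit of the replicative helicase, was at 245, 121, 146 and 147 CPM in DN and 63.5, 65.9, 83.8 and 55.3 CPM in DP (log2 difference -1.30, SE 0.24, adjusted p = 0.0114 in edgeR). Its adjusted p was 0.0502 without DP library 1. Uhrf1, which carries DNA methylation through replication, was at 144, 79.7, 75.5 and 77.1 CPM in DN and 28.5, 22.4, 36.3 and 31.2 CPM in DP (log2 difference -1.67, SE 0.35, adjusted p = 0.0201 in edgeR), a call lost without DN library 1 or DP library 1 or 2 (adjusted p up to 0.0962). Of the 20 genes of G1 control, Cdk4 alone was called (4 lower with the block, 3 with DESeq2). It was at 502, 464, 445 and 507 CPM in DN and 286, 341, 313 and 386 CPM in DP (log2 difference -0.53, SE 0.12, adjusted p = 0.0269 in edgeR), and this was lost without DN library 1, 2 or 4 or DP library 1, 2 or 3 (adjusted p up to 0.117).

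**Figure D3:**
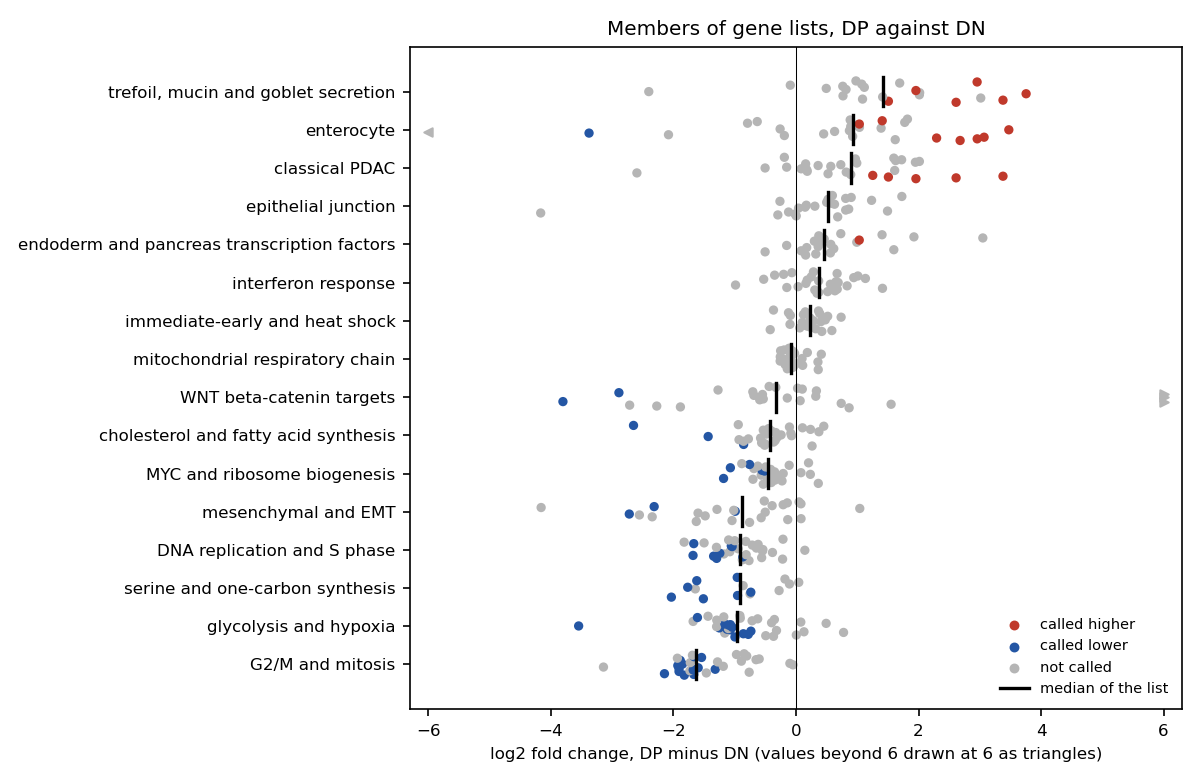
Each point is a tested member of the list named at the left, placed by its log2 fold change of DP minus DN, coloured by call, with the list's median as a black bar. The medians run from 1.41 for the trefoil and mucin list to -1.63 for the G2/M list, and the respiratory chain lies near 0 (-0.084).

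Synthesis of amino acids, sterols and ribosomes was also lower in part. Psat1, the second enzyme of serine synthesis, was at 182, 121, 104 and 115 CPM in DN and 26.5, 33.1, 27.8 and 40.3 CPM in DP (log2 difference -2.03, SE 0.29, adjusted p = 0.00382 in edgeR). Asns, asparagine synthetase, was at 94.6, 68.6, 76.8 and 78.2 CPM in DN and 41.9, 38.9, 40.1 and 42.8 CPM in DP (log2 difference -0.96, SE 0.13, adjusted p = 0.00382 in edgeR). Slc7a5, the large neutral amino acid transporter, was at 191, 114, 134 and 149 CPM in DN and 52.9, 52.8, 38.5 and 46.9 CPM in DP (log2 difference -1.62, SE 0.24, adjusted p = 0.00392 in edgeR). In all of these the DP libraries formed a tight group, none of which reached the DN range. A list of serine and one-carbon genes, drawn up after these values had been seen, had 7 of 14 tested members lower (9 with the block) and none higher, with a median of -0.909.

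Of 28 tested genes of cholesterol and fatty acid synthesis, 3 were called lower and none higher (7 lower with the block), with a median of -0.423. Among them the call of Mvk, mevalonate kinase, was lost in 7 alternatives (log2 fold change -0.85, adjusted p up to 0.151). Of 27 genes of MYC output and ribosome biogenesis 5 were called lower (11 with the block) and none higher, with a median of -0.464. Ldha was among the 5. Leaving out 1 library gave 1 (DN library 1), 2 (DP library 1 or 2) or 3 to 5. Srm, spermidine synthase, was at 169.9, 106, 93.6 and 101 CPM in DN and 51.1, 49.1, 53.9 and 53.3 CPM in DP (log2 difference -1.18, SE 0.22, adjusted p = 0.0103 in edgeR), and at an adjusted p of 0.0506 without DN library 1. Of 28 cytosolic ribosomal protein genes 27 had a lower fitted level in DP, 1 was called, Rplp0 (log2 fold change -0.62, edgeR adjusted p = 0.0231, lost without DN library 1 or 4 or DP library 1 and in both fits of the 8 libraries alone, up to 0.0942), and 8 were lower with the block.

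Mesenchymal genes were lower in part. Of 24 tested, 3 were called lower (5 with the block), none was called higher, and the median was -0.875; without DN library 1, 2 or 4, or DP library 1, 2 or 3, the count was 1. S100a4, a calcium-binding protein of migrating cells, was at 46.4, 101, 43.5 and 74.3 CPM in DN and 10.1, 6.43, 10.5 and 13.1 CPM in DP (log2 difference -2.72, SE 0.40, adjusted p = 0.00392 in edgeR). Loxl2, a collagen cross-linking oxidase, and Itga5, the fibronectin receptor subunit, were the others, with log2 fold changes of -2.32 and -0.99; their calls were lost in 8 and 11 alternatives, with adjusted p up to 0.138 and 0.151. Vim, vimentin, was at 1341, 779, 744 and 1065 CPM in DN and 676, 552, 466 and 629 CPM in DP, which missed the threshold (log2 difference -0.76, SE 0.23, adjusted p = 0.0997 in edgeR) and passed it with the block (adjusted p = 0.0115).

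Smtn, smoothelin, an actin-binding protein of contractile cells, was at 304, 148, 103 and 263 CPM in DN and 14.3, 12.4, 16.5 and 36.9 CPM in DP (log2 difference -3.35, SE 0.51, adjusted p = 0.00455 in edgeR). The DP libraries were below all DN libraries, with DP library 4 the highest of them. It was 1 of 2 called members of 20 tested contractile genes (5 lower with the block), whose median was -0.495. The other was Arap3, a regulator of small GTPases, at 127, 69.6, 50.2 and 71 CPM in DN and 9.11, 10.5, 13.9 and 23.3 CPM in DP (log2 difference -2.48, SE 0.46, adjusted p = 0.0107 in edgeR), which was at an adjusted p of 0.0525 without DP library 1. Gzme, a granzyme that cytotoxic lymphocytes are better known for, was at 33.4, 6.4, 5.29 and 38.5 CPM in DN and 1.4, 0.238, 0.315 and 0.801 CPM in DP (log2 difference -4.92, SE 1.03, adjusted p = 0.0219 in edgeR), with the call lost in 6 alternatives (adjusted p up to 0.128). Nkg7, a marker of such lymphocytes, was at 4.41, 7.11, 2.81 and 3.49 CPM in DN and 1.03, 0.413, 0.835 and 0 CPM in DP and was not called (log2 difference -2.96, SE 1.42, adjusted p = 0.325 in edgeR); its part in the Gzme result was not tested.

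Genes of RAS-ERK output had 2 of 24 members called lower and none higher (3 lower and 2 higher with the block, 3 lower and 1 higher with DESeq2), and the count was 2 with every DN or DP library left out in turn. Rps6ka2, a ribosomal S6 kinase that ERK activates, was at 209.6, 72.6, 51.5 and 99.6 CPM in DN and 9.95, 2.43, 4.72 and 6.49 CPM in DP (log2 difference -4.20, SE 0.56, adjusted p = 0.00382 in edgeR). Etv4, an ETS factor induced by this pathway, was at 77.2, 46, 44.3 and 70.5 CPM in DN and 16.7, 22.2, 16 and 17.9 CPM in DP (log2 difference -1.71, SE 0.28, adjusted p = 0.0061 in edgeR). Egfr, the receptor upstream, went the other way, at 24.2, 26.2, 22.7 and 11.4 CPM in DN and 53.9, 47.8, 69.3 and 27.4 CPM in DP, and missed the threshold (log2 difference 1.23, SE 0.32, adjusted p = 0.0538 in edgeR; adjusted p = 0.0188 with the block).

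DP cells passed the gate of a TCF reporter. The WNT genes that were called, Lgr6, Apcdd1, Igfbp4 and Wnt10a, were lower in DP. Lower calls also outnumbered higher ones over all genes tested (273, 1.71%, against 98, 0.614%). Lgr6 and Apcdd1 are also in the list of target genes, so they count again there. Lgr6, an R-spondin receptor that potentiates WNT signals, lies on chromosome 1 from 134983300 to 135105374 and was at 54.3, 33.1, 9.78 and 32.6 CPM in DN and 1.34, 3.18, 2.06 and 2.71 CPM in DP (log2 difference -3.80, SE 0.59, adjusted p = 0.00416 in edgeR). Every DP library was below every DN library, and DN library 3 was the lowest of its group. Apcdd1, a secreted WNT inhibitor that is itself a target of the pathway, was at 14, 4.34, 2.98 and 5.07 CPM in DN and 0.986, 1.67, 0.242 and 0.665 CPM in DP (log2 difference -2.89, SE 0.60, adjusted p = 0.0188 in edgeR; lost without DN library 1 or DP library 1, 3 or 4 and in limma voom, up to 0.0957). Igfbp4, which binds insulin-like growth factors and also dampens WNT receptors, was at 4195, 2461, 2179 and 3076 CPM in DN and 1139.9, 897, 1085 and 1416 CPM in DP (log2 difference -1.39, SE 0.27, adjusted p = 0.013 in edgeR; lost without DN library 1 or DP library 2, up to 0.0608).

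Wnt10a was the ligand gene called. It was at 248, 150, 145 and 127 CPM in DN and 91.7, 44.6, 53.5 and 78.5 CPM in DP (log2 difference -1.32, SE 0.30, adjusted p = 0.0299 in edgeR; lost without DN library 1 or 2 or DP library 2 or 3, up to 0.135). Of 20 tested genes of WNT ligands and secretion it was the only call, of 20 receptor genes Lgr6 was, and Apcdd1 and Igfbp4 were the 2 of 7 secreted inhibitors. Of 25 tested target genes 2 were called lower, Lgr6 and Apcdd1, and none higher, with a median of -0.33 (3 lower and 2 higher with DESeq2); with the block there were 3, the third being Myc (adjusted p = 0.0188, 0.312 without it), at 123, 159, 165 and 114 CPM in DN and 77, 117, 129.7 and 63.1 CPM in DP. The summed level of the core list was 1433 to 1821 CPM in DN and 1853 to 2023 CPM in DP, higher without overlap. That of the secreted inhibitors was 2183 to 4219 CPM in DN and 903.8 to 1426 CPM in DP, lower without overlap. The sums of the ligand, receptor and target lists overlapped. Of 24 core genes none was called by edgeR, 5 had an unadjusted p under 0.05, DESeq2 called 2 higher and the block 2 higher. Among the latter was Ctnnb1, which encodes beta-catenin, at 468, 589, 715 and 445 CPM in DN and 988, 753, 787 and 1006 CPM in DP (log2 difference 0.67, SE 0.18, adjusted p = 0.0587 in edgeR; adjusted p = 0.0423 with the block). Some feedback targets often used to read the pathway were scarce. Axin2 did not exceed 0.508 CPM and Lef1 0.421 CPM in any of the 8 libraries, and neither was called. Notum and Sp5 had too few counts to be tested. Nkd1 was at 4.18, 0.755, 0.0111 and 2.75 CPM in DN and 1.16, 0, 0.0121 and 0.902 CPM in DP. It was not called (log2 difference -1.89, SE 1.76, adjusted p = 0.679 in edgeR), and neither was Rnf43. The TCF core CTTTGA was found in 20.8% of the promoters of the target list, 12.7% of those of genes tested, 11.2% of those of genes called lower and 8.65% of those of genes called higher. It shares bases with TTTGAA wherever CTTTGAA occurs. The share of the target list describes that list and not the difference between DP and DN.

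Inflammatory programmes gave no calls in edgeR. Their counts at an unadjusted p under 0.05 stand beside 2520 of 15963 over all genes tested. Of 27 interferon genes 21 had a higher fitted level in DP (median 0.369), 5 had an unadjusted p under 0.05, DESeq2 called 0 and the block 3 higher. Of 29 NF-kB genes 5 had an unadjusted p under 0.05, DESeq2 called 1 higher and 1 lower and the block 5 higher and 1 lower. Of 19 genes of MHC class I and peptide loading 3 had an unadjusted p under 0.05, and DESeq2 and the block each called 1 higher. H2-T23, a nonclassical class I gene, was at 361, 499, 445 and 497 CPM in DN and 698, 836, 579 and 631 CPM in DP (log2 difference 0.61, SE 0.17, adjusted p = 0.0828 in edgeR; 0.0294 with the block). Of 25 immediate-early and heat shock genes, which respond to handling of the tissue, none had an unadjusted p under 0.05, and DESeq2 and the block called none.

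The same genes were set beside the single-positive gates. Between DP and mScarlet edgeR called 0.0% of the genes (0 of 15963, smallest adjusted p 0.102), with 460 at an unadjusted p under 0.05, 0 with the block and 43 with DESeq2. Between DP and GFP it called 90 genes (0.564%), 32 higher and 58 lower in DP, and 813 with the block. These comparisons share the DP libraries with the one above. Slc9a4 had a mean of 3.1 ± 2.33 CPM (SD, n = 4) in DN and 9.67 ± 3.41 CPM in GFP, against 28.3 ± 10.1 CPM in mScarlet and 34.4 ± 17.6 CPM in DP. The mScarlet and DP libraries overlapped, and the log2 difference of DP minus mScarlet was 0.28, SE 0.47, adjusted p = 1 in edgeR. Eno3 was at 84 ± 32.2, 41.6 ± 10.4, 11.2 ± 2.78 and 7.18 ± 1.47 CPM in the same order, and DP minus mScarlet was -0.64, SE 0.28, adjusted p = 1 in edgeR. Cdc20 was at 119 ± 40.1, 94.7 ± 29.5, 41.5 ± 13.4 and 33.8 ± 6.55 CPM, and DP minus mScarlet was -0.30, SE 0.27, adjusted p = 1 in edgeR. The call of Krt20 in DP against DN (379 ± 10.9 and 775 ± 99.6 CPM, adjusted p = 0.0319 in edgeR) was lost with any 1 DN or DP library left out (adjusted p up to 0.121). For Slc9a4, Eno3 and Cdc20 the gates without mScarlet stood on one side and those with it on the other. A p above the threshold does not show that DP and mScarlet were alike.

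The comparison of mScarlet with GFP shares no library with that of DP with DN. Its libraries carry the same numbers and share the fit, so the comparisons are not independent. It called 245 genes (1.53%), 1190 with the block and 1513 with DESeq2. Called in both, and in the same direction, were 58 genes, which is 15.6% of the calls of DP against DN and 23.7% of those of mScarlet against GFP. With the block 396 genes were called in both in the same direction, 38.9% of the former and 33.3% of the latter.

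**Figure D4:**
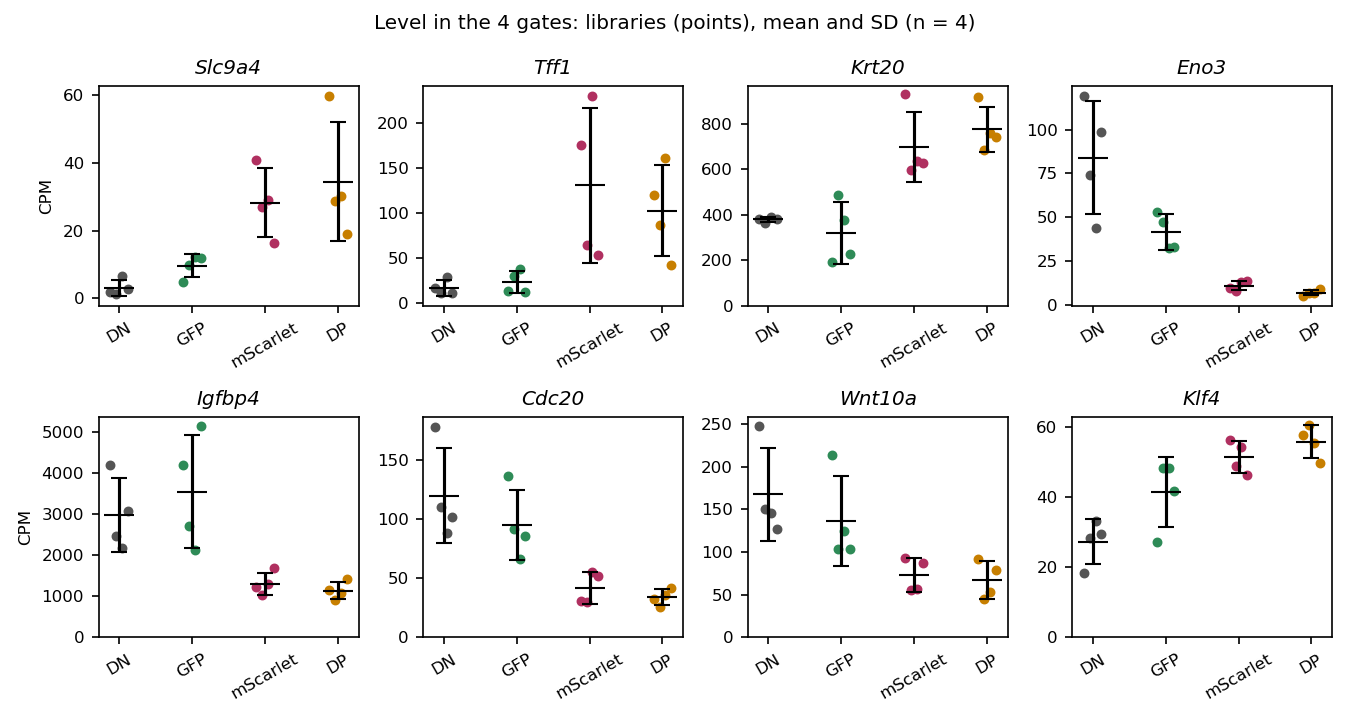
Each panel is 1 gene, with the level in CPM from 0 upward, each point a library, and the bars the mean and SD of 4 libraries in the gates DN, GFP, mScarlet and DP. Slc9a4, Tff1 and Krt20 are high, and Eno3, Igfbp4, Cdc20 and Wnt10a low, in both mScarlet and DP, while Klf4 in GFP lies between DN and DP.

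Markers of other cells that a sort can carry along were looked at in the same libraries. In bulk samples fewer cells of a type and less RNA per cell cannot be told apart. Of 20 macrophage and myeloid markers 19 had a higher fitted level in DP (median 1.62), and their summed level was 1240 to 5674 CPM in DN and 3451 to 12260 CPM in DP, so the groups overlapped. None was called by edgeR or DESeq2, and 3 had an unadjusted p under 0.05. C1qa, a complement gene of macrophages, was at 303, 19.3, 64.5 and 13.9 CPM in DN and 504, 195, 142 and 393 CPM in DP. Library 1 was the highest of both groups. Of 20 fibroblast markers 18 had a lower fitted level in DP (median -1.83), with none called by either tool and 2 at an unadjusted p under 0.05; the sum was 1251 to 2976 CPM in DN and 1372 to 1604 CPM in DP. Col1a1, the main fibroblast collagen, was at 105, 41.6, 63.1 and 408 CPM in DN and 27.6, 49.4, 7.92 and 82 CPM in DP, with DN library 4 the highest. By library number the fibroblast sum was 1252, 1251, 1517 and 2976 CPM in DN and 1372, 1542, 1604 and 1438 CPM in DP. The sum of the mesenchymal list above was 5785, 7577, 6257 and 6219 CPM in DN and 4295, 5040, 5325 and 6854 CPM in DP. The sums thus moved in opposite directions in every number, although the median log2 fold change of both lists was negative. The part of the fibroblast markers in the mesenchymal result was not tested.

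Endothelial markers were low, and their sum, 32.16 to 40.21 CPM in DN and 15.73 to 24.65 CPM in DP, did not overlap between the groups. Among 13 tested endothelial genes none was called by edgeR or DESeq2, 3 had an unadjusted p under 0.05, and the block called 1 lower. Acinar markers summed to 557.6 to 2125 CPM in DN and 956.1 to 1783 CPM in DP, with Ptf1a, the factor that defines acinar cells, at 0 in all 8 libraries, and 0 of 24 tested members called by either tool (1 at an unadjusted p under 0.05). Of these 24, 22 had a lower fitted level in DP (median -2.236). Reg1, a secreted protein of acinar cells, was at 336, 976, 564 and 587 CPM in DN and 990.4, 1555, 905 and 1287 CPM in DP and was called higher with the block (adjusted p = 0.00533, 0.191 without it). Lymphocyte markers summed to 17.32 to 56.49 CPM in DN and 6.102 to 33.35 CPM in DP, with none of 19 called by either tool and 1 at an unadjusted p under 0.05; 13 of the 19 had a lower fitted level in DP (median -1.976).

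**Figure D5:**
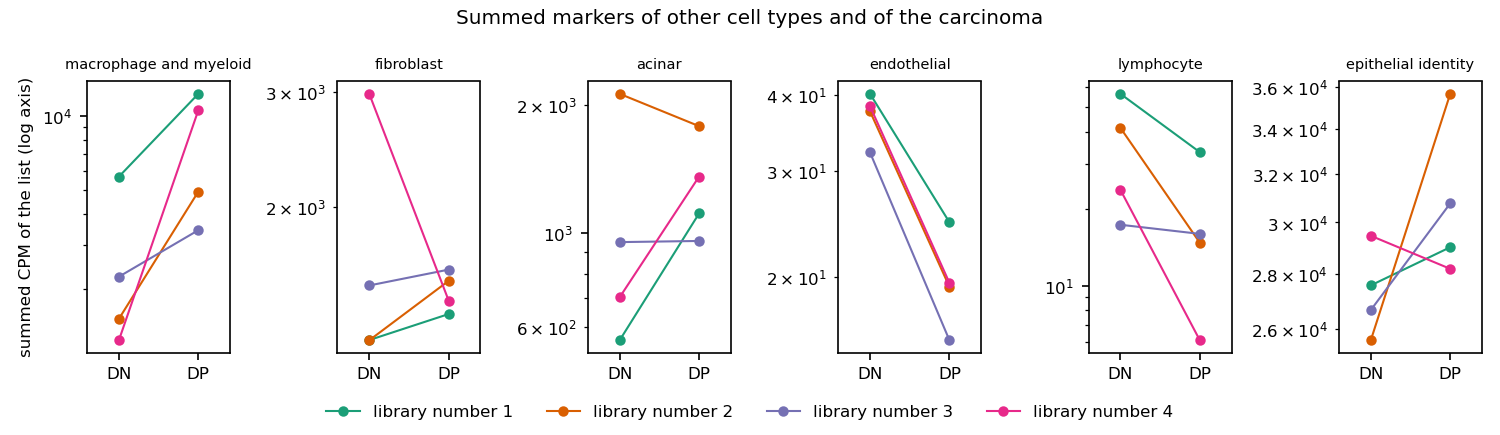
Each panel gives the summed level of a marker list in CPM on a log axis, with lines joining the DN and DP libraries of one number. Macrophage markers were higher in DP than in DN of the same number in all 4 numbers, though the groups overlapped, endothelial markers were lower in DP without overlap (32.16 to 40.21 against 15.73 to 24.65 CPM), and the epithelial identity list stayed within 25610 to 35660 CPM.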

How the data were processed

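RNA of sorted cells was sequenced after full-length cDNA synthesis and PCR amplification for low input, per the labels' protocols. Whole-number counts of reads, deposited per library with Entrez identifiers, had not been normalized by the authors. The submitters' processing notes name GRCm38 (mm10), STAR and DESeq2 1.24.0 without their roles. Which counter, annotation and strand setting were used is not given in these sources, so reads of overlapping genes and near-identical copies are uncertain (among genes named here, also Smtn, S100a4, Plk1, Cdk4, Loxl2, Hmga1, Hmga2, Slc2a1, Gpi1, Aldoa, Prap1 and Tuba1a). Symbols from a RefSeq table matched 24437 of 24467 identifiers.

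Counts of all 16 libraries were fitted with edgeR 4.0.16 (TMM, expression filter by group, robust quasi-likelihood fit, group as the only term) in R 4.3.3, and p-values were Benjamini-Hochberg adjusted over all 15963 genes tested, with 0.05 as the threshold. Unless another tool is named, adjusted p-values are edgeR's. Errors of log2 differences are standard errors (SE). Amplified reads without molecular identifiers are not independent molecules. On simulated counts the procedure recovered 26 of 100 genes changed 2-fold and 75 of 100 changed 4-fold, with 1 false call. The simulated libraries had no effect of the library number, and scarce genes were not changed. These rates may therefore not hold for the real libraries.

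The library numbers come from the titles. DP and DN libraries of the same number deviated together (correlations 0.423, 0.256, 0.21 and 0.296, against -0.266 to 0.2 for other numbers). The main fit did not use this pairing, so the log2 differences, SEs and adjusted p-values printed from it ignore the number. Fits with the number as a block were alternatives and are given where they change a result. No label says that a number is a shared mouse. Replicates differed beyond sampling noise (lowest chi-square per degree of freedom 91.79). Alternatives used RLE and upper quartile scaling, other filters, DESeq2 1.42.0, limma voom (3.58.1), the 8 libraries alone, and leaving out libraries.

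The markers and 44 gene lists were chosen with earlier results of these data known, and 3 more lists after the values had been seen, so list counts are descriptions. Named genes were the 4 markers and 8 WNT genes, 15 called genes in each direction chosen by size of change (at least 10 CPM in the higher group, no overlap), 5 in each direction by level, and up to 4 members of each list by p, of which a selection is printed; the other genes were chosen after their values were seen. Some called genes are not reported here by name. Promoters came from RefSeq.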

Additional observations from a re-analysis of the deposited data

Results flagged for a closer look

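In 150 groups of 4 libraries, 2 for each of 75 genes named above, the highest and the lowest library were compared with the nearest of the others by Dixon's criterion, which chance meets in about 1 in 20 groups. It was met in 8. DN library 1 stood above the other DN libraries for Plk1 (80.7 CPM, the next at 48.1), for Srm (170.0 CPM, the next at 106.0) and for Uhrf1 (144.0 CPM, the next at 79.7). DP library 4 stood above the other DP libraries for Smtn (36.9 CPM, the next at 16.5), for Hmga1 (151.0 CPM, the next at 93.5) and for Hmga2 (2.33 CPM, the next at 1.09), and below them for Gata6 (36.7 CPM, the next at 47.2). DP library 3 was the one DP library with counts of Fcer1a (0.121 CPM, the others at 0.0). The calls of Srm and Uhrf1 were lost without DN library 1, that of Plk1 was not, and those of Smtn, Hmga1 and Hmga2 held without DP library 4. Gata6 and Fcer1a were not called.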

How the results depend on the processing

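The number of genes called between DP and DN was 381 with RLE scaling, 353 with upper quartile scaling, 294 without a filter, 397 with a filter of at least 1 CPM in 4 libraries and 385 with limma voom, all within 1.5 times the 371 reported. It was 1014 with DESeq2 (347 higher, 667 lower) and 578 in a fit of the 8 libraries alone (216 higher, 362 lower). With the replicate block it was 1017 over 16 libraries (394 higher, 623 lower) and 1011 over 8 (449 higher, 562 lower). Leaving out 1 library gave 105 to 532 calls, 29 to 184 higher and 76 to 348 lower, and leaving out GFP libraries 1 and 4 together gave 761 (322 higher, 439 lower). Of the named genes no log2 fold change reversed, 78 results became called and 308 were no longer called under some alternative. The block changed no other call of a gene named in the report than those given there. The cause of the differences between tools and fits was not tested. On simulated data, which had no effect of the library number, a 2-fold change was recovered for 26 of 100 genes. A gene not called may thus still differ.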

Other observations

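Of the 98 genes called higher, 78 were in none of the lists, and of the 273 called lower, 203. Those with the smallest p, named after their values had been seen, included epithelial and immune genes on the higher side. Ms4a8a, a membrane protein of the MS4A family, was at 49.8 ± 9.91 CPM in DN and 145 ± 17 CPM in DP (log2 difference 1.55, SE 0.18, adjusted p = 0.000929 in edgeR). Prap1, a secreted protein of the intestine that binds lipid, was at 65.1 ± 11.3 and 276 ± 44.5 CPM (log2 difference 2.08, SE 0.29, adjusted p = 0.00382 in edgeR), and Slc26a2, a sulfate transporter, at 44.8 ± 6.77 and 123 ± 16.3 CPM (log2 difference 1.46, SE 0.21, adjusted p = 0.00392 in edgeR). Il18, a cytokine made by gut epithelium, was at 17.5 ± 6.65 and 57.1 ± 11.3 CPM (log2 difference 1.71, SE 0.24, adjusted p = 0.00382 in edgeR). SDs are over 4 libraries.

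On the lower side were Hmga1, a chromatin protein of dividing and embryonic cells, at 529 ± 245 CPM in DN and 105 ± 31.1 CPM in DP (log2 difference -2.34, SE 0.37, adjusted p = 0.00481 in edgeR), Lgals1, galectin 1, at 2246 ± 651 and 791 ± 149.7 CPM (log2 difference -1.51, SE 0.24, adjusted p = 0.00426 in edgeR), and the tubulin gene Tuba1a, at 695 ± 181 and 268 ± 26 CPM (log2 difference -1.37, SE 0.19, adjusted p = 0.00382 in edgeR). Histone genes of the replication-dependent clusters had 9 of 63 tested members called lower and none higher (10 lower with the block), and 57 had a lower fitted level in DP, with a median log2 fold change of -0.926. These genes are near-identical copies and most of their transcripts lack a poly(A) tail, so single members are uncertain. Of 12 tested genes of the gastric pit and the squamous envelope, a list made after the values had been seen, 4 were called higher and 1 lower. Those higher numbered 0 without DN library 1, 1 without DN library 4 or DP library 1 or 2, and 2 without DN library 2 or DP library 3. Sprr2a1, a cornified envelope protein with near-identical copies, was at 14.1, 31, 26.1 and 14.6 CPM in DN and 167, 161, 70.1 and 76.8 CPM in DP (log2 difference 2.47, SE 0.45, adjusted p = 0.00972 in edgeR; 0.0516 without DN library 1). The member called lower was Krt13, a keratin of squamous epithelium, at 21.5, 8.01, 9.57 and 19.7 CPM in DN and 4.04, 2.48, 5.18 and 3.53 CPM in DP (log2 difference -1.95, SE 0.41, adjusted p = 0.0219 in edgeR; lost without DN library 1 or 4 or DP library 1, 2 or 4, up to 0.0997).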
